A study of Homo sapiens with 9 samples.

Results

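Nuclear receptors are transcription factors that bind DNA through a pair of zinc fingers and, in many members, change their activity when a small lipophilic ligand enters a pocket in their ligand-binding domain. The expression of 41 genes of this superfamily, the androgen receptor left out, was examined in 2 prostate cancer cell lines. Members were taken by gene symbol, with earlier results of these data known, and all 41 were among the 28216 genes of the count table. They comprise the thyroid hormone, retinoic acid and vitamin D receptors, the lipid sensors (PPARs, LXRs, FXR and PXR), the circadian repressors NR1D1 and NR1D2 with RORA, the shared dimer partners RXRA, RXRB and RXRG, the orphan groups NR2C, NR2F, NR4A, NR5 and NR6, the HNF4 pair, the receptors for oestrogens, glucocorticoids, mineralocorticoids and progesterone, the oestrogen-related receptors, and NR0B1 and NR0B2, which lack the usual DNA-binding domain.

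Polyadenylated RNA was sequenced from 9 libraries in 3 groups of 3. Vehicle-treated and androgen-treated LNCaP (clone FCG) cells, an androgen-responsive line from a lymph node metastasis, both spent 24 h without phenol red in RPMI that held charcoal-stripped serum, and then 48 h with 0.01% ethanol or with 10 nM of androgen; the sample labels name the androgen as dihydrotestosterone (DHT), whereas the text of the study speaks of the synthetic androgen R1881. PC3 cells, an androgen-insensitive line from a bone metastasis, were untreated and grown in F12K medium with serum that was not stated to be stripped. Both lines are labelled as epithelial with a wild-type genotype, each stands for 1 tumour, and charcoal stripping removes steroid, retinoid and thyroid hormones from serum, so that cell line, medium and serum cannot be told apart wherever PC3 was compared with LNCaP.

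In prostate epithelium the androgen receptor is the dominant member of the superfamily. Other members read cues from the same steroid, retinoid, fatty acid and sterol metabolism: retinoic acid, thyroid hormone, vitamin D, PPAR and LXR receptors work as heterodimers with an RXR on repeats of the half-site AGGTCA, while glucocorticoid, mineralocorticoid and progesterone receptors bind, as the androgen receptor does, paired copies of the half-site AGAACA. The NR4A receptors act without a classical ligand and are known as early response genes, and NR2F receptors are developmental regulators that also occupy AGGTCA repeats.

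Each library held 17397706 to 25640325 reads on genes, and counts are given here either as reads or as CPM, reads scaled to a common library size of 1e6. With 3 reads per library as the floor, the smallest level that could be told from none was 0.118 to 0.16 CPM, which covers counting error only. The labels did not say that replicates came from separate cultures, so p-values measure the spread between these libraries. All 8 luminal prostate markers lay above the floor in every LNCaP library, and 5 of the 8 did in every PC3 library. Their summed levels were 2140 to 2410 CPM (vehicle), 11600 to 12200 CPM (androgen) and 924 to 1250 CPM (PC3). KLK2 had 0 reads in each PC3 library. KLK3, a classical androgen target, had 9831, 12789 and 9925 reads with vehicle against 88658, 86989 and 88995 with androgen. HOXB13 was present in all 9 libraries. Markers of other cell types were divided. CHGA, INSM1, CD3E and CDH5 were at 0 throughout, whereas ENO2 had 433 to 1714 reads, COL1A1 255 to 1013 and CD68 30 to 871 over all libraries. VWF had 148 to 335 reads in LNCaP, ACTA2 433 to 616 with androgen and KRT15 549 to 814 in PC3. The summed levels were 0.198 to 0.427 CPM (vehicle), 1.34 to 2.26 CPM (androgen) and 24.8 to 32.2 CPM (PC3) for 4 basal markers, and 17.6 to 19.6, 23.5 to 29.7 and 34.6 to 37.9 CPM for 8 blood and endothelial markers. For 8 fibroblast and muscle markers the sums were 24.4 to 27.0, 35.5 to 41.3 and 38.5 to 50.9 CPM, and for 6 neuroendocrine markers 40.4 to 42.9, 25.2 to 45.5 and 51.2 to 69.3 CPM; the part of these transcripts in the results below was not tested.

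The 6 members with the largest differences described below, NR4A1 and PGR after androgen and NR2F1, NR3C1, PPARG and RARB between the lines, are introduced by the 250 bases upstream of their RefSeq start (GRCh38.p14, written 5′ to 3′ on the gene's strand, with 1 start per gene). Capitals mark either half-site, read on both strands: AGGTCA, which reads TGACCT on the other strand, or AGAACA, which reads TGTTCT there.
NR4A1, chr12:52022582-52022831, plus strand: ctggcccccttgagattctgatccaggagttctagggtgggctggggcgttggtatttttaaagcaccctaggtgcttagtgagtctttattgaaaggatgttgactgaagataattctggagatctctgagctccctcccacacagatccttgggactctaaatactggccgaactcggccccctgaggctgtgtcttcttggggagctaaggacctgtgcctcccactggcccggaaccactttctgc
PGR, chr11:101129078-101129327, minus strand: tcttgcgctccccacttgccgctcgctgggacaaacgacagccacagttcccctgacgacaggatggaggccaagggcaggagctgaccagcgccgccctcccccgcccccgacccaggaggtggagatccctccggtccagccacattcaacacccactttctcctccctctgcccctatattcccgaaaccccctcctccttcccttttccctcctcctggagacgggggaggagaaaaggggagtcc
NR2F1, chr5:93582972-93583221, plus strand: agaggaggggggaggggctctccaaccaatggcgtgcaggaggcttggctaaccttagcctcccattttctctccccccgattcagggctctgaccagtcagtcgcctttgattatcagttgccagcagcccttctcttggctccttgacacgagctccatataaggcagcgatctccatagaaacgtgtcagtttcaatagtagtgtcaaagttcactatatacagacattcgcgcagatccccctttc
NR3C1, chr5:143404483-143404732, minus strand: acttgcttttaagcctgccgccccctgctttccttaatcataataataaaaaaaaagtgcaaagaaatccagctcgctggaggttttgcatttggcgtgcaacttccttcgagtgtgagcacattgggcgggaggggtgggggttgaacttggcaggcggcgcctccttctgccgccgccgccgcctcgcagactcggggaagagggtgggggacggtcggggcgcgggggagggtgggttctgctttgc
PPARG, chr3:12287118-12287367, plus strand: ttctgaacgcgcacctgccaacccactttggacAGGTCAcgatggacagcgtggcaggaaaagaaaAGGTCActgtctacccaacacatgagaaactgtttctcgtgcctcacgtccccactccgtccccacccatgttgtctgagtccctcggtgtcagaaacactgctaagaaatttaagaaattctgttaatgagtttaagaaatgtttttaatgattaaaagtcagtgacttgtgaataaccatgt
RARB, chr3:25428013-25428262, plus strand: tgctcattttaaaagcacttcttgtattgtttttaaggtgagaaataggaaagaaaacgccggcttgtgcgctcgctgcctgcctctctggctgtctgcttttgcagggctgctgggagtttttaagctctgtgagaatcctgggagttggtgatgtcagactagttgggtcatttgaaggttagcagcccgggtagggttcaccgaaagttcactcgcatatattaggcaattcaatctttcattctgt
Only the PPARG window among these 6 held an exact copy of either half-site, with 2 copies of AGGTCA on the strand shown. Half-sites that differ from these letters were not searched for, in these windows or in the promoters counted below. The NR3C1 window was rich in CG dinucleotides (17) and 59.2% GC, and the PPARG window had 8 and 44.8%. Of the 36 members with a RefSeq promoter, 7 held AGGTCA (NR0B1, NR1H3, NR1H4, NR5A2, PPARG, RARA and RXRG) and 5 held AGAACA (ESR1, NR0B1, NR1I2, PPARD and RXRB). Over all 27305 promoters of the same length the shares were 12.1% and 12.4%. The median GC content was 59.8% for the members and 58.0% for all promoters. A match describes letters in the window, not a bound site.

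The members fell into expressed and silent receptors. Of the 41 genes, 28 exceeded 3 CPM in at least 1 library, 31 had reads in all 9 libraries, and 7 never rose above the floor of 3 reads. These 7 were the bile acid receptor NR1H4 (FXR), the xenobiotic receptor NR1I2 (PXR), the hepatocyte factor HNF4A, RXRG, the steroidogenic factor NR5A1, and NR0B1 and NR0B2, both of which had 0 reads everywhere. The oestrogen receptor ESR1 was close to them, with 5, 1 and 4 reads in PC3 and 0 or 1 read in each LNCaP library. The libraries are bulk RNA of whole cultures, so fewer cells holding a transcript and less transcript per cell cannot be told apart.

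**Figure D1:**
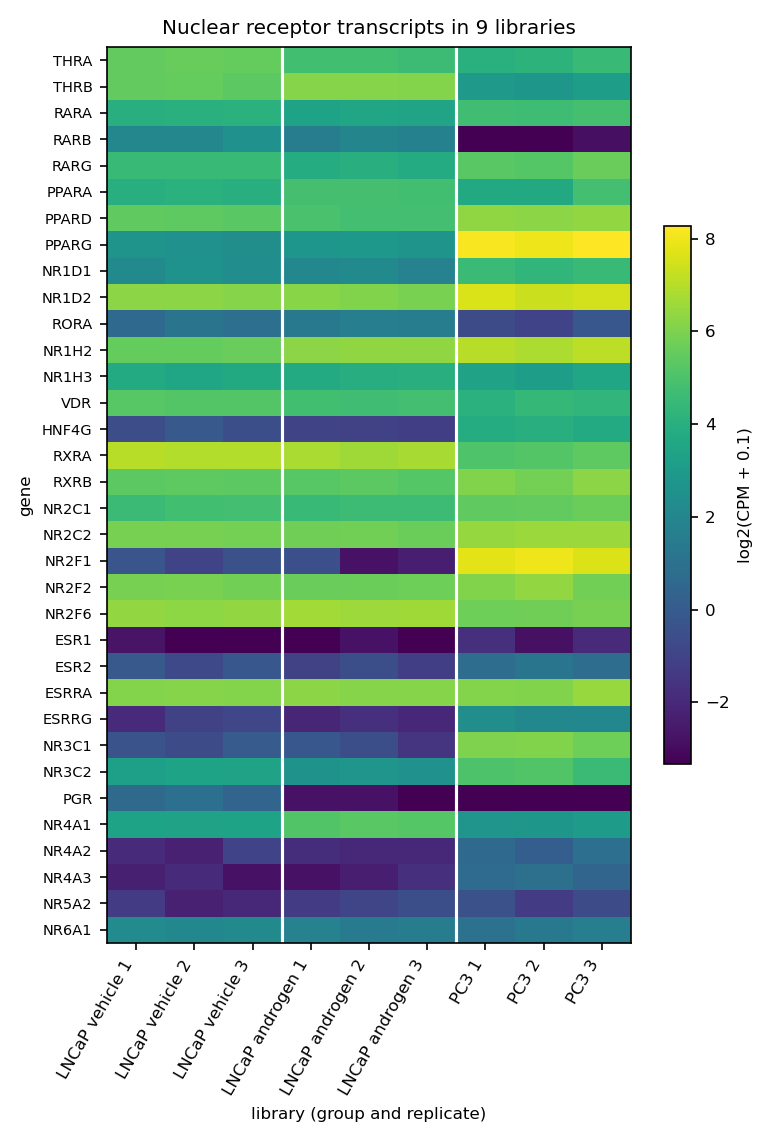
Levels of the 34 members above the floor of 3 reads in at least 1 library, as log2(CPM + 0.1) by colour, with 1 row per gene and 1 column per library. The 3 libraries of a group resemble each other, and NR2F1, NR3C1, PPARG, HNF4G and ESRRG are each brighter in every PC3 column than in any LNCaP column.

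Levels of different genes were compared only after division by the length of their merged exons (GENCODE 44), as CPM per kilobase. NR2F6, an orphan receptor related to the COUP-TF proteins, was the highest member in LNCaP, at 30.9 ± 0.973 CPM per kilobase with vehicle and 36.8 ± 1.04 with androgen (SD, n = 3 in both). The oestrogen-related receptor ESRRA, a regulator of mitochondrial genes, was next in both, at 22.6 ± 0.161 and 23.6 ± 0.785. In PC3 the first place went to NR2F1 (COUP-TFI) at 51.6 ± 6.15, ahead of NR1D2 at 30.8 ± 3.15. The following 3 in PC3, ESRRA at 24.2 ± 3.72, NR1H2 at 23.8 ± 2.21 and PPARG at 23.6 ± 2.35, did not differ beyond their spread. NR1D2 (12.8 ± 0.331), RXRB (10.5 ± 0.220) and RXRA (10.3 ± 0.425) followed in vehicle-treated LNCaP, the latter pair being indistinguishable. Under androgen the LXR gene NR1H2 came next at 14.8 ± 0.599, followed by NR1D2 at 11.6 ± 1.16. The deposited counts do not name the gene model, so these levels per length depend on the choice of GENCODE.

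The first comparison asked which receptors responded to androgen in LNCaP cells. A gene was tested if it exceeded 3 CPM in at least 3 libraries, passed the test at an adjusted p under 0.05 (edgeR's quasi-likelihood test, Benjamini-Hochberg over all genes tested) and was called if the change was also at least 2-fold. Of 23 members tested, NR4A1 was called higher and no member was called lower (DESeq2 also called 1), where 6.54% of the 11697 genes tested were called higher and 7.49% lower. By adjusted p alone, 5 members (NR4A1 among them) passed the test upwards and 13 downwards, beside 37.1% and 37.8% of all genes. The median log2 change was -0.18 for the members and -0.01 for all genes. Where groups are said below to lie apart or not to overlap, the share of all genes without overlap was not counted.

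**Figure D2:**
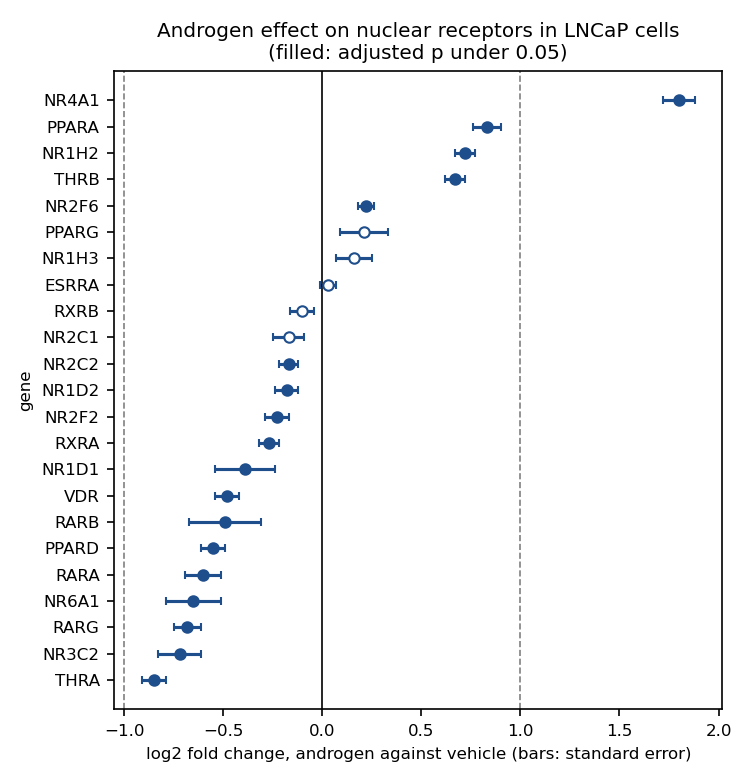
Log2 fold change of the 23 members tested, LNCaP with androgen over LNCaP with vehicle (horizontal axis, bars show the standard error), with dashed lines at 2-fold. NR4A1 alone lies beyond 2-fold, at 1.80, and more of the filled points (adjusted p under 0.05) lie on the lower side (13) than on the higher (5).

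NR4A1 (NUR77), an orphan receptor and early response gene on chromosome 12 (52022832-52059507, GRCh38, GENCODE 44), rose with androgen. Its levels were 10.6, 10.1 and 10.6 CPM in the vehicle libraries and 34.5, 39.7 and 36.9 CPM in the androgen libraries. The groups lay far apart, with each androgen library at over 3 times the highest vehicle library. The log2 change was 1.80 ± 0.08 (SE, n = 3 per group; adjusted p = 3.50e-10, edgeR's quasi-likelihood test), and leaving out any library gave 1.74 to 1.86. Its relatives NR4A2 (2 to 8 reads) and NR4A3 (1 to 4 reads) stayed near the floor in every LNCaP library and were not tested.

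The progesterone receptor PGR moved the other way from a low starting level. It had 29, 33 and 26 reads in the vehicle libraries and 1, 1 and 0 in the androgen libraries. All vehicle libraries were above the floor and all androgen libraries below it, and the level was at least 10.5-fold lower with androgen. PGR did not reach 3 CPM and was tested only when genes with at least 10 reads in 3 or more libraries were admitted (adjusted p = 3.03e-07, edgeR's quasi-likelihood test). With that lower filter 29 members were tested and 2 were called, NR4A1 and PGR, beside 16.9% of 13974 genes called in either direction. PGR and HNF4G passed this filter through the vehicle libraries alone and could only be called lower. The lower filter also admitted RORA, whose log2 change was 0.62 ± 0.20 (adjusted p = 0.0138, edgeR), with 28, 39 and 36 reads under vehicle and 53, 62 and 56 under androgen. Without androgen replicate 2 or vehicle replicate 1 its adjusted p was 0.0521 or 0.0619.

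**Figure D3:**
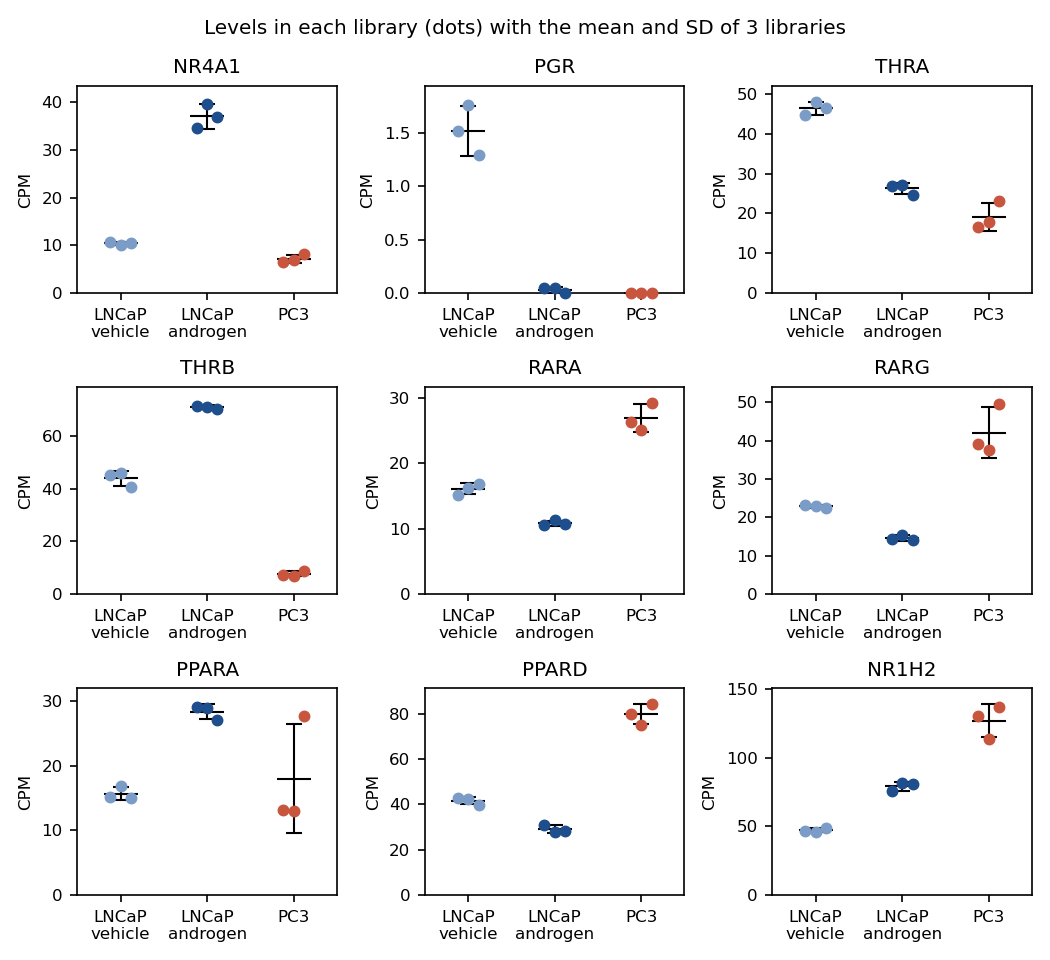
Level in CPM of 9 receptors in each library (dots) by group, with the mean and SD of 3 libraries as bars; each panel has its own axis from 0. THRB and NR1H2 are higher and THRA, RARA, RARG and PPARD lower under androgen than under vehicle with no overlap, and 1 PC3 library stands above the other 2 for PPARA. The share of all genes without overlap was not counted.

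The thyroid hormone receptor genes moved in opposite directions under androgen. THRA was at 44.8, 47.9 and 46.5 CPM with vehicle and at 27.0, 27.3 and 24.6 CPM with androgen. THRB was at 45.1, 45.9 and 40.8 CPM with vehicle and at 71.6, 71.2 and 70.4 CPM with androgen. Neither gene's groups overlapped, with log2 changes of -0.85 ± 0.06 for THRA (SE, adjusted p = 3.22e-08, edgeR) and 0.67 ± 0.05 for THRB (adjusted p = 7.57e-08, edgeR). Within a library the ratio of THRB to THRA reads was 1.01, 0.959 and 0.877 with vehicle and 2.65, 2.61 and 2.86 with androgen. The ratios did not overlap, and the log2 difference of 1.52 had an exact two-sided permutation p of 0.1, the smallest that 3 against 3 libraries can give. The summed level of both genes was 10.3 ± 0.344 CPM per kilobase with vehicle and 10.1 ± 0.254 with androgen (SD, n = 3 in both), so that the share of THRB in that sum went from 38.8% to 64.4% with little difference in the total. THRA shares 473 exonic bases with NR1D1, which is read from the opposite strand, and the counts used were strand-specific.

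All 3 retinoic acid receptors were lower with androgen. RARG was at 23.3, 22.9 and 22.5 CPM with vehicle and 14.2, 15.4 and 14.1 CPM with androgen. RARA was at 15.2, 16.2 and 16.8 CPM against 10.5, 11.3 and 10.7 CPM. These groups were apart for both genes, with log2 changes of -0.68 ± 0.07 (adjusted p = 1.66e-06, edgeR) and -0.60 ± 0.09 (adjusted p = 2.92e-05, edgeR). RARB, itself a classical retinoic acid target, was at 3.98, 4.0 and 5.76 CPM with vehicle and 2.91, 3.78 and 3.33 CPM with androgen, a log2 change of -0.49 ± 0.18 (adjusted p = 0.0248, edgeR). Without vehicle replicate 3, the highest library, the RARB change was -0.28 (adjusted p = 0.169), and without androgen replicate 1 its adjusted p was 0.085. The summed level of the 3 genes was 8.34 ± 0.196 CPM per kilobase with vehicle and 5.49 ± 0.263 with androgen, whereas their shares moved little (RARG 53.6% and 51.9%).

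The PPAR genes, receptors for fatty acids, split in direction. PPARA, the regulator of fatty acid oxidation, was at 15.1, 16.9 and 15.1 CPM with vehicle and 29.1, 29.0 and 27.1 CPM with androgen. PPARD was at 42.8, 42.2 and 39.8 CPM with vehicle and 31.1, 27.8 and 28.2 CPM with androgen. PPARA thus rose by 0.83 ± 0.07 on the log2 scale (adjusted p = 2.80e-07, edgeR) and PPARD fell by 0.55 ± 0.06 (adjusted p = 1.55e-06, edgeR), without overlap in either. PPARG, the adipogenic member, did not pass the test (0.21 ± 0.12, adjusted p = 0.12, edgeR). The share of PPARA in the summed level per kilobase was 10.8% with vehicle and 23.3% with androgen.

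Among the sterol-sensing LXRs, NR1H2 (LXRβ) was at 46.5, 45.9 and 48.7 CPM with vehicle and 75.5, 81.5 and 80.5 CPM with androgen. Every androgen library was above every vehicle library, a log2 rise of 0.72 ± 0.05 (adjusted p = 4.51e-08, edgeR). NR1H3 (LXRα), at 12.7 ± 1.20 and 14.5 ± 0.914 CPM (SD, n = 3 in both), did not pass the test (0.16 ± 0.09, adjusted p = 0.142). The vitamin D receptor VDR was at 38.5, 36.1 and 36.1 CPM with vehicle and 27.3, 26.2 and 27.7 CPM with androgen, a log2 change of -0.48 ± 0.06 (adjusted p = 4.75e-06, edgeR).

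Their common partner RXRA was at 130.6, 121.8 and 121.6 CPM with vehicle and 110.6, 97.3 and 109.1 CPM with androgen. The difference was small but without overlap, a log2 change of -0.27 ± 0.05 (adjusted p = 2.37e-04, edgeR). RXRB did not pass the test (-0.10 ± 0.06, adjusted p = 0.128), although without androgen replicate 2 its adjusted p was 0.0341.

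The circadian repressors of the REV-ERB pair changed little. NR1D1 was at 4.50, 5.87 and 5.11 CPM with vehicle and 4.16, 4.51 and 3.38 CPM with androgen. NR1D2 was at 75.8, 75.1 and 72.2 CPM with vehicle and 73.8, 67.0 and 60.4 CPM with androgen. The groups overlapped for both genes, with log2 changes of -0.39 ± 0.15 (adjusted p = 0.0344, edgeR) and -0.18 ± 0.06 (adjusted p = 0.0135, edgeR). Leaving out androgen replicate 1 or 3 or vehicle replicate 2 or 3 took NR1D1 past 0.05 (adjusted p up to 0.143), and leaving out androgen replicate 3 gave an adjusted p of 0.0549 for NR1D2.

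Of the orphan receptors, NR2F6 was at 83.7, 79.0 and 83.2 CPM with vehicle and 100.2, 94.7 and 97.9 CPM with androgen, a rise of 0.22 ± 0.04 on the log2 scale (adjusted p = 2.47e-04, edgeR). NR2F2 (COUP-TFII) was at 58.7, 60.9 and 55.1 CPM against 48.4, 51.3 and 51.8 CPM, a log2 change of -0.23 ± 0.06 (adjusted p = 0.00192, edgeR). NR2C2 (TR4) was at 59.4, 58.9 and 56.8 CPM against 53.3, 55.0 and 50.1 CPM, a log2 change of -0.17 ± 0.05 (adjusted p = 0.00596, edgeR). These shifts were below the size of the NR4A1 change by far. The groups did not overlap for these 3 genes, but the share of all genes without overlap was not counted. With all 9 libraries in 1 fit the adjusted p of NR2F2 was 0.109 (edgeR). NR6A1 (germ cell nuclear factor) was at 4.71, 4.21 and 4.62 CPM with vehicle and 3.37, 2.60 and 2.83 CPM with androgen, a log2 change of -0.65 ± 0.14 (adjusted p = 0.00113, edgeR). NR2C1 (TR2) had a log2 change of -0.17 ± 0.08 (adjusted p = 0.0719). With the replicate number as a block its adjusted p was 0.0207.

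NR2F1 was barely detected in LNCaP. It had 14, 8 and 13 reads with vehicle and 13, 1 and 2 with androgen, so that androgen replicate 1 lay among the vehicle libraries. With the lower filter the log2 change was -1.23 ± 0.57 (adjusted p = 0.0716, edgeR), or -1.26 with the replicate number as a block (adjusted p = 0.0284), and -2.93 without androgen replicate 1 (adjusted p = 5.52e-04). That library also held the most of 96 transcripts that mark PC3, which summed to 0.547% of what PC3 held. The remaining LNCaP libraries had 0.12% to 0.335%. These 96 were picked from these data, at 100 CPM or more on average in PC3 and under 1% of that level in each LNCaP library. The rule itself thus kept these shares below 1%, and NR2F1 met it too. NR2F1 itself lay between 0.022% and 0.324% of its PC3 level; the part of PC3 transcripts in these reads was not tested.

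The mineralocorticoid receptor NR3C2 was at 9.16, 10.4 and 10.0 CPM with vehicle and 6.01, 6.52 and 5.76 CPM with androgen. It fell by 0.72 ± 0.11 on the log2 scale without overlap (adjusted p = 4.56e-05, edgeR). The glucocorticoid receptor NR3C1 was near the floor in both groups, with 13, 10 and 18 reads under vehicle and 17, 12 and 5 under androgen. Its groups overlapped, and with the lower filter the change was -0.38 ± 0.38 (adjusted p = 0.386). ESR2 (7 to 16 reads) had -0.70 ± 0.35 (adjusted p = 0.0885), falling to 0.0419 without androgen replicate 2 and 0.0407 without vehicle replicate 2. ESRRA was level at 70.2 ± 0.501 and 73.1 ± 2.43 CPM (0.03 ± 0.04, adjusted p = 0.524). HNF4G had 11, 16 and 12 reads with vehicle and 9, 8 and 7 with androgen (-0.80 ± 0.33, adjusted p = 0.0433, lower filter), and its adjusted p was 0.051 with the replicate block and up to 0.192 when any library other than vehicle replicate 1 was left out. Of the 41 members, 12 had too few reads for this comparison under either filter.

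The remaining comparisons set PC3 against each LNCaP group, to describe how the receptor repertoire of the androgen-insensitive line differed. Both use the same 3 PC3 libraries and are therefore given side by side and not as independent evidence. Against androgen-treated LNCaP, 25 members were tested, 11 were called higher in PC3 and 3 lower, where 24.0% of 12541 genes were called higher and 22.1% lower. Against vehicle-treated LNCaP, 27 were tested, 9 were called higher and 4 lower, where 22.2% of 12686 genes were called higher and 21.0% lower. The members' median log2 difference was 0.77 and 0.69, against 0.04 and 0.03 for all genes. These counts and medians depend on the filter. NR2F1, NR3C1, HNF4G and ESRRG passed it through the PC3 libraries alone and could only be called higher. RARB passed it through the vehicle libraries alone and could only be called lower. ESR2, NR4A2 and NR4A3, higher in PC3, and RORA, lower in PC3, were left out of both tests. Of the 25 members tested in both, 10 were called in both, but the share of all genes called in both was not counted.

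**Figure D4:**
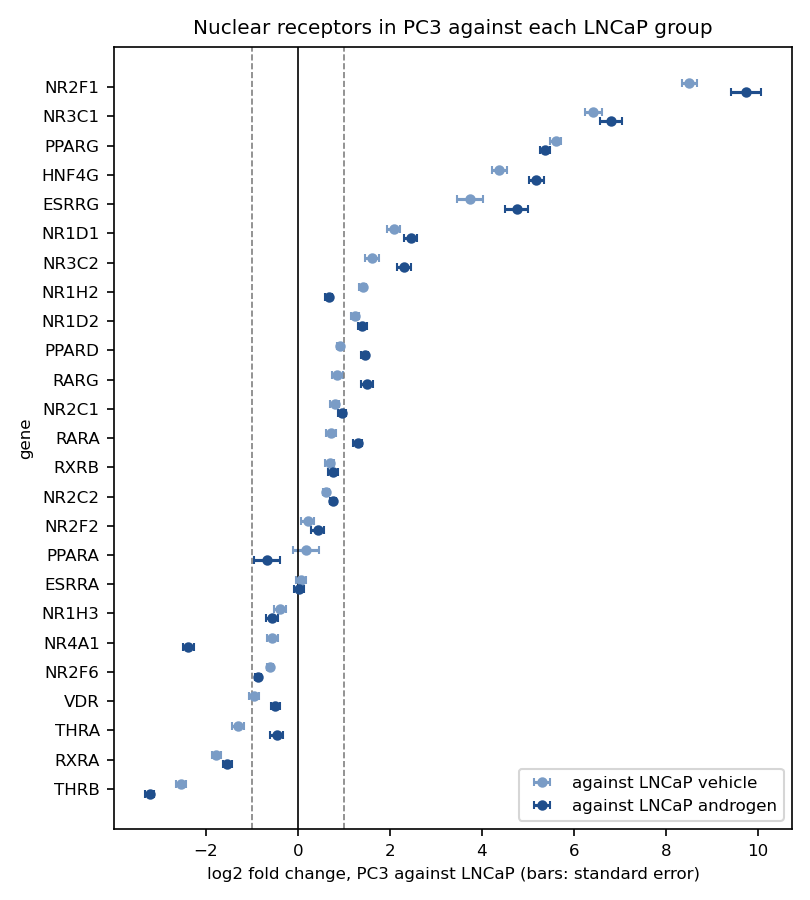
Log2 fold change of the 25 members tested in both PC3 comparisons (horizontal axis, bars show the standard error), against vehicle-treated LNCaP (light) and androgen-treated LNCaP (dark); dashed lines mark 2-fold and the PC3 libraries are shared. NR2F1, NR3C1, PPARG, HNF4G and ESRRG form the far right, THRB and RXRA lie left of the 2-fold line in both, and NR4A1 differs most between both colours on the left (-2.38 and -0.56).

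The largest difference belonged to NR2F1, a COUP-TF orphan receptor on chromosome 5 (93583222-93594611, GRCh38). PC3 libraries held 222.6, 254.6 and 201.0 CPM, from 5108 or more reads each, while no LNCaP library exceeded 14 reads. The groups were apart by 9.74 ± 0.33 on the log2 scale against androgen-treated LNCaP (SE, n = 3 per group; adjusted p = 9.20e-08, edgeR) and by 8.51 ± 0.17 against vehicle-treated LNCaP (adjusted p = 1.36e-08). The former was 11.46 without androgen replicate 1, which held 13 reads, and at least 9.27 without any other library. The related NR2F2 was at 66.7, 83.9 and 56.1 CPM in PC3, a difference of 0.43 ± 0.14 against androgen (adjusted p = 0.0175, and 0.0587 without androgen replicate 1) and of 0.22 ± 0.14 against vehicle (adjusted p = 0.165, and 0.0078 without PC3 replicate 3). NR2F6 was lower in PC3, at 51.5, 53.3 and 58.4 CPM, with log2 differences of -0.86 ± 0.07 and -0.61 ± 0.07 (adjusted p = 8.06e-06 and 7.18e-05, edgeR), short of 2-fold. NR2F1 made up 62.3% of the summed NR2F level per kilobase in PC3 but 0.342% with vehicle and 0.126% with androgen. That sum was 82.7 ± 7.54 CPM per kilobase in PC3 and 40.0 ± 0.755 and 44.6 ± 0.903 in the LNCaP groups.

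Glucocorticoid and mineralocorticoid receptors were both higher in PC3. NR3C1 was at 65.6, 67.2 and 52.9 CPM in PC3 and at 0.248 to 0.893 CPM over the 6 LNCaP libraries. NR3C2 was at 32.9, 34.9 and 24.2 CPM in PC3, above the LNCaP values given before. NR3C1 was 111-fold higher than in androgen-treated LNCaP (log2 6.80 ± 0.24, adjusted p = 1.23e-07, edgeR) and 85.6-fold higher than with vehicle (6.42 ± 0.18, adjusted p = 4.40e-08). For NR3C2 the folds were 4.97 (2.31 ± 0.16, adjusted p = 3.09e-06) and 3.06 (1.61 ± 0.15, adjusted p = 2.16e-05). The NR3C1 reads of LNCaP libraries equalled 0.401% to 1.44% of the PC3 level. The 96 PC3 transcripts reached at most 0.547%, but they had been picked to lie under 1%, so these shares cannot be set against each other. The part of PC3 transcripts in the NR3C1 reads was not tested. PGR had 0 reads in all 3 PC3 libraries, at least 12.3-fold below vehicle-treated LNCaP (lower filter, adjusted p = 3.34e-05). NR3C1 accounted for 58.6% and NR3C2 for 40.0% of the summed level of 5 steroid receptors in PC3, where NR3C2 had accounted for 86.1% with vehicle and 90.5% with androgen.

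ESR2 and ESRRG were low in both lines, whereas the related ESRRA was among the highest members. ESR2 had 42, 49 and 43 reads in PC3 and 7 to 16 in LNCaP, and was tested only with the lower filter (log2 2.06 ± 0.28 against androgen and 1.36 ± 0.26 against vehicle, adjusted p = 1.32e-04 and 0.00131, edgeR). The oestrogen-related receptor ESRRG had 131, 93 and 107 reads in PC3, against 3, 4 and 3 with androgen and 3, 7 and 9 with vehicle. It was called in both comparisons, by 4.76 ± 0.25 (adjusted p = 7.40e-07) and 3.75 ± 0.28 (adjusted p = 5.70e-06) on the log2 scale, from a low LNCaP level. ESRRA, at 68.4, 68.1 and 88.2 CPM in PC3, passed neither test (0.02 ± 0.11 and 0.07 ± 0.11, adjusted p = 0.84 and 0.541). Without PC3 replicate 3 these differences turned to -0.13 (adjusted p = 0.0461) and -0.09.

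PPARG, the receptor that drives adipocyte differentiation, rose to a high level in PC3. It was at 288.3, 252.8 and 308.3 CPM there, at 6.28, 5.65 and 5.16 CPM in vehicle-treated LNCaP and at 6.66, 7.16 and 6.36 CPM with androgen. Every PC3 library was over 30 times every LNCaP library, with fitted folds of 41.7 against androgen (5.38 ± 0.11, adjusted p = 1.51e-08, edgeR) and 49.0 against vehicle (5.61 ± 0.12, adjusted p = 1.56e-08). PPARD was at 80.0, 75.3 and 84.2 CPM in PC3. It was called against androgen (1.45 ± 0.08, adjusted p = 8.00e-07) and passed the test below 2-fold against vehicle (0.92 ± 0.07, adjusted p = 6.24e-06). The composition of the PPAR group therefore differed: PPARG held 55.1% of the summed level per kilobase in PC3 but 4.32% with vehicle and 6.10% with androgen, and the sum itself was 42.9 ± 3.87 CPM per kilobase in PC3 against 11 ± 0.433 and 9.22 ± 0.439.

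PPARA depended on 1 PC3 library. It was at 13.2 and 13.0 CPM in PC3 replicates 1 and 2 and at 27.7 CPM in replicate 3. The first 2 lay below all LNCaP libraries and the third within the androgen group, and neither test was passed (-0.67 ± 0.28, adjusted p = 0.0571, against androgen and 0.18 ± 0.29, adjusted p = 0.584, against vehicle). Other settings took the former under 0.05 but not to 2-fold: its adjusted p was 0.0239 with DESeq2, 0.0287 with the likelihood ratio test, 0.0319 with all 9 libraries in 1 fit, 0.0334 with the replicate block, 0.0393 with no filter and 0.0477 with the lower filter. Without PC3 replicate 3 the values were -1.14 (called) and -0.31 (adjusted p = 0.0147).

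**Figure D5:**
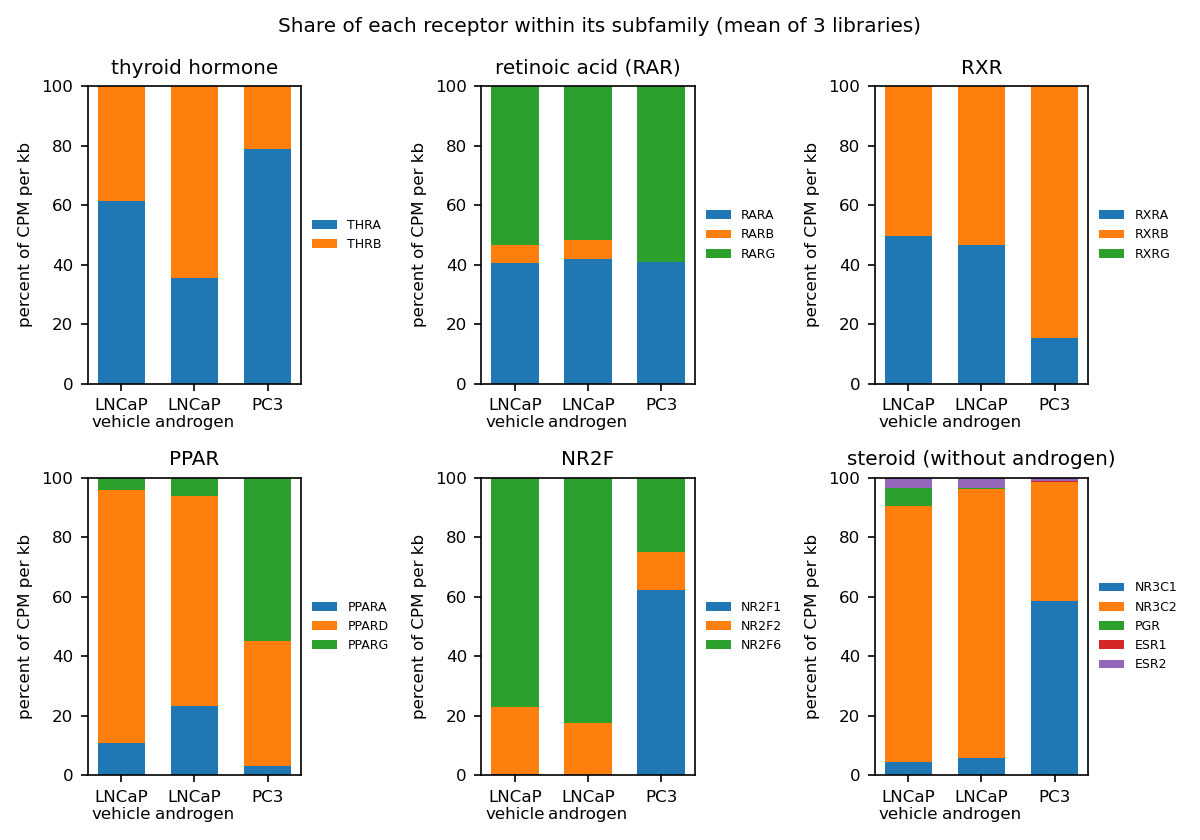
Share of each receptor in the summed CPM per kilobase of its subfamily, mean of 3 libraries for each group, as stacked bars from 0 to 100 percent. The THRB share is largest with androgen (64.4%), and PPARG (55.1%), NR2F1 (62.3%), RXRB (84.8%) and NR3C1 (58.6%) hold the largest share of their subfamilies in PC3 alone or, for RXRB, hold far more than in LNCaP.

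Thyroid hormone receptors were lower in PC3. THRB was at 7.30, 7.01 and 8.74 CPM and THRA at 16.6, 17.8 and 23.2 CPM. THRB was called in both comparisons (-3.22 ± 0.10, adjusted p = 6.47e-08, against androgen and -2.53 ± 0.11, adjusted p = 3.33e-07, against vehicle). THRA was called against vehicle (-1.29 ± 0.13, adjusted p = 3.71e-05) and was short of 2-fold against androgen (-0.46 ± 0.14, adjusted p = 0.014), where leaving out PC3 replicate 1 or androgen replicate 2 gave an adjusted p of 0.0566 or 0.0503. The ratio of THRB to THRA reads was 0.441, 0.394 and 0.376 in PC3, below every LNCaP library, with log2 differences of -2.75 and -1.23 (exact two-sided permutation p = 0.1 for each, the smallest possible). The summed level of both was 3.32 ± 0.564 CPM per kilobase.

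Retinoic acid receptors diverged between the lines. RARB had 0, 0 and 1 read in PC3 but 75 to 116 reads with vehicle and 63 to 77 with androgen. All PC3 libraries were thus under the floor, at least 36.9-fold below vehicle (adjusted p = 2.02e-06, edgeR) and at least 26.9-fold below androgen (lower filter, adjusted p = 1.11e-06). RARG, at 39, 37.5 and 49.6 CPM in PC3, and RARA, at 26.3, 25.1 and 29.2 CPM, were above all LNCaP libraries. Both were called against androgen (RARG 1.51 ± 0.13, adjusted p = 1.06e-05; RARA 1.30 ± 0.10, adjusted p = 6.15e-06) and passed the test short of 2-fold against vehicle (0.86 ± 0.12, adjusted p = 2.43e-04, and 0.72 ± 0.10, adjusted p = 1.81e-04).

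RXRA, the partner of these receptors, was at 33.2, 35.5 and 42.3 CPM in PC3 and was called lower in both comparisons (-1.53 ± 0.10, adjusted p = 3.16e-06, and -1.77 ± 0.10, adjusted p = 1.13e-06, edgeR). RXRB was at 67.4, 57.8 and 76.0 CPM in PC3 and passed the test upwards below 2-fold (0.77 ± 0.11, adjusted p = 2.55e-04, and 0.69 ± 0.10, adjusted p = 4.01e-04). The summed RXR level was similar in the 3 groups, at 20.8 ± 0.399 (vehicle), 18.7 ± 0.242 (androgen) and 20.3 ± 2.63 (PC3) CPM per kilobase. RXRB made up 84.8% of it in PC3 and 50.4% and 53.3% in LNCaP.

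The REV-ERB genes, repressors in the circadian clock, were called higher in PC3 in both comparisons. NR1D1 was at 24.0, 19.6 and 23 CPM and NR1D2 at 196.5, 160.0 and 178.8 CPM. No LNCaP library came near these values, and the log2 differences were 2.45 ± 0.15 and 2.08 ± 0.14 for NR1D1 (adjusted p = 1.47e-06 and 3.08e-06, edgeR) and 1.40 ± 0.10 and 1.24 ± 0.08 for NR1D2 (adjusted p = 4.53e-06 and 3.31e-06). RORA, an activator at the same DNA elements, had 13, 9 and 20 reads in PC3 and was lower, with log2 differences of -2.27 ± 0.26 and -1.64 ± 0.28 (lower filter, adjusted p = 4.89e-05 and 7.45e-04).

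HNF4G, a relative of the hepatocyte factor HNF4A, had 357, 336 and 346 reads in PC3 and 7 to 16 in LNCaP libraries. It was called by 5.18 ± 0.16 (adjusted p = 5.59e-08, edgeR) and 4.38 ± 0.16 (adjusted p = 1.57e-07). LNCaP libraries held 2.43% to 5.96% of the PC3 level. NR1H2 was at 130.5, 113.7 and 136.5 CPM in PC3 and was called against vehicle (1.41 ± 0.08, adjusted p = 1.62e-06) but not against androgen (0.67 ± 0.08, adjusted p = 1.27e-04). NR1H3 was lower, with log2 differences of -0.56 ± 0.13 (adjusted p = 0.00331) and -0.38 ± 0.13 (adjusted p = 0.0237), the latter past 0.05 without PC3 replicate 1 or 2 or vehicle replicate 1 or 3 (adjusted p up to 0.0842). VDR was at 17, 21.2 and 19.9 CPM in PC3, with log2 differences of -0.49 ± 0.10 against androgen (adjusted p = 0.00209) and -0.95 ± 0.10 against vehicle (adjusted p = 3.69e-05).

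NR4A1 was at 6.50, 6.97 and 8.11 CPM in PC3. That was below all LNCaP libraries, with log2 differences of -2.38 ± 0.12 against androgen (adjusted p = 5.26e-07, edgeR) and -0.56 ± 0.12 against vehicle (adjusted p = 0.00272). NR4A2 and NR4A3 lay above the floor in PC3, with 37, 22 and 45 and with 39, 41 and 32 reads. Neither exceeded 8 reads in LNCaP, so both passed the lower filter through the PC3 libraries alone and could only be called higher. With the lower filter both were called higher in both comparisons: NR4A2 by 3.08 ± 0.37 and 2.61 ± 0.44 (adjusted p = 6.73e-05 and 6.39e-04), and NR4A3 by 3.70 ± 0.41 against androgen (adjusted p = 3.77e-05) and at least 10.0-fold against vehicle (adjusted p = 2.71e-05). The NR4A2 difference from vehicle was 3.35 without vehicle replicate 3, and the NR4A3 difference from androgen 4.32 without androgen replicate 3. Over all libraries left out in turn, these 2 differences were as low as 2.3 and 3.32. NR4A1 held 62.5% of the summed NR4A level per kilobase in PC3, against 95.4% with vehicle and 98.9% with androgen.

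The testicular receptors NR2C1 and NR2C2 passed the test upwards below 2-fold in both comparisons (NR2C1 0.96 ± 0.09 and 0.80 ± 0.10, NR2C2 0.77 ± 0.07 and 0.61 ± 0.06, adjusted p up to 1.00e-04, edgeR). NR6A1, with 49, 55 and 77 reads in PC3, was lower than with vehicle (log2 -0.88 ± 0.18, adjusted p = 0.00208) and differed from androgen by -0.26 ± 0.21 (lower filter, adjusted p = 0.278). NR5A2, the liver receptor homologue, had 2 to 16 reads in any library and did not pass the test against androgen (0.15 ± 0.37, adjusted p = 0.716). With the lower filter 32 members were tested in each comparison, of which 19 were called against androgen and 18 against vehicle, beside 50.2% of 15154 and 47.5% of 15193 genes. These counts depend on the filter as well. NR4A2, NR4A3 and ESRRG passed it through the PC3 libraries alone and could only be called higher. RARB and, against vehicle, PGR passed it through the LNCaP libraries alone and could only be called lower.

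Genes around the receptors were counted from lists of coregulators, ligand metabolism genes and known targets. These lists, too, were chosen with earlier results of these data known. Beside 6.54% of all genes tested called higher with androgen and 7.49% lower, 1 of 27 coregulators tested was called, NCOA7. It had 1510, 1341 and 1459 reads with vehicle and 820, 621 and 615 with androgen, a log2 change of -1.20 ± 0.07 (adjusted p = 4.54e-09, edgeR), and the list's median was -0.10. In PC3, 4 coregulators were called higher and 5 lower against androgen, and 2 higher and 4 lower against vehicle, with medians of 0.11 and -0.03. Over all genes tested 24.0% were higher and 22.1% lower against androgen, and 22.2% and 21.0% against vehicle. The histone demethylase gene KDM6A had 1298, 1085 and 1117 reads in PC3 and 5454 to 6404 in LNCaP (-2.54 ± 0.07 and -2.77 ± 0.08, adjusted p = 5.12e-08 and 5.41e-08). NCOA3, a p160 coactivator, was higher by 2.06 ± 0.22 and 1.90 ± 0.22 (adjusted p = 5.06e-05 and 9.31e-05). CARM1, an arginine methyltransferase, was higher by 1.84 ± 0.06 and 1.68 ± 0.06 (adjusted p = 6.04e-08 and 9.50e-08), and TBL1XR1, of the NCoR corepressor complex, was lower in both, with log2 differences of -1.80 ± 0.12 and -1.75 ± 0.13 (adjusted p = 2.85e-06 and 6.39e-06).

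Of 11 ligand metabolism genes tested with androgen, 3 were called higher and 3 lower (median -0.07), beside 6.54% and 7.49% of all genes tested. ALDH1A3, which makes retinoic acid, rose by 2.24 ± 0.08 on the log2 scale (adjusted p = 3.02e-11, edgeR), from 780, 985 and 915 to 5211, 4484 and 4226 reads. RDH10, which makes its precursor retinaldehyde, fell by 1.52 ± 0.08 (adjusted p = 1.34e-09). DIO1, a deiodinase that activates thyroid hormone, fell by 2.82 ± 0.13 (adjusted p = 4.49e-10), from 231, 243 and 232 to 42, 33 and 34 reads, and had 0 reads in each PC3 library, at least 98.1-fold below vehicle. In PC3, 8 of 16 were called higher and 4 lower against androgen, and 7 higher and 5 lower against vehicle (medians 0.66 and 0.46), beside 24.0% and 22.1%, and 22.2% and 21.0%, of all genes tested. CYP27A1, the sterol 27-hydroxylase, had 247, 224 and 228 reads in PC3 and at most 2 in LNCaP, at least 66.5-fold and 62.0-fold higher. The retinoid carrier CRABP2 had 2263, 2145 and 1382 reads in PC3 and 3 to 17 in LNCaP (7.56 ± 0.41 against androgen, adjusted p = 8.58e-07). The fatty acid carrier FABP5 had 1284, 1691 and 886 reads in PC3, against 15, 0 and 1 with androgen and 2, 1 and 0 with vehicle, at least 348.0-fold above the latter.

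Target genes followed no single direction. Of 50 tested with androgen, 13 were called higher and 6 lower (median 0.10), beside 6.54% and 7.49% of all genes tested. The same shares stand beside the counts for each receptor's targets below and, for PC3, 24.0% higher and 22.1% lower (androgen) and 22.2% and 21.0% (vehicle). Among 10 glucocorticoid targets, 6 were called higher and 1 lower, with NR3C1 itself near the floor. Several of these genes are also known androgen targets, and which receptor acted on them, here or in PC3, was not tested. FKBP5 had 1846, 1616 and 1927 reads with vehicle and 60253, 59326 and 56411 with androgen (4.90 ± 0.05, adjusted p = 3.66e-15, edgeR). SGK1 rose by 3.53 ± 0.18 (adjusted p = 1.16e-09) and NFKBIA by 2.14 ± 0.06 (adjusted p = 6.37e-12). In PC3, where NR3C1 was high, 1 of these 10 was called higher and 7 lower against androgen, and 3 higher and 4 lower against vehicle. ZBTB16 had 0, 1 and 0 reads in PC3, at least 1160-fold below androgen and 331-fold below vehicle. KLF9 had 20, 11 and 20 reads in PC3, with log2 differences of -7.16 ± 0.14 and -7.19 ± 0.13 (adjusted p = 1.24e-08 and 1.20e-08), and SGK1 was higher than with vehicle by 3.01 ± 0.24 (adjusted p = 9.01e-06).

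PPAR targets were mixed in PC3, with 3 called higher and 4 lower of 8 tested against androgen and 3 and 3 against vehicle. FABP4, a fatty acid carrier of adipocytes, had 533, 647 and 259 reads in PC3 and at most 2 in LNCaP, at least 139-fold and 130-fold higher. The lipid droplet coat gene PLIN2 had 1226, 1115 and 1286 reads in PC3 and 20, 12 and 7 with androgen (6.29 ± 0.21, adjusted p = 7.93e-08, edgeR), and PDK4 was at least 25.4-fold higher than with vehicle.

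With androgen, 2 of 8 LXR targets were called higher and 1 lower. The cholesterol exporter gene ABCA1 fell from 99, 134 and 115 to 7, 4 and 6 reads (-4.46 ± 0.26, adjusted p = 4.53e-09, edgeR), whereas the desaturase gene SCD rose by 1.43 ± 0.05 (adjusted p = 1.84e-11) and SMPDL3A by 1.01 ± 0.09 (adjusted p = 2.00e-07). ABCA1 had 564, 466 and 583 reads in PC3, higher by 6.30 ± 0.17 and 1.86 ± 0.13 (adjusted p = 4.06e-08 and 4.85e-06), the 1 LXR target called higher there beside 4 and 3 called lower. SREBF1, a lipogenic transcription factor, was lower, with log2 differences of -2.39 ± 0.10 and -2.01 ± 0.10 (adjusted p = 2.15e-07 and 4.84e-07), as were SCD at -2.79 ± 0.10 against androgen (adjusted p = 1.31e-07) and LPCAT3, a phospholipid-remodelling enzyme gene, at -2.24 ± 0.07 against vehicle (adjusted p = 6.30e-08).

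Thyroid hormone targets gave 1 call each way of 4 tested with androgen, DIO1 (above) and BCL3 (1.02 ± 0.11, adjusted p = 1.99e-06, edgeR). In PC3 the corepressor gene HR had 749, 676 and 1076 reads against 7 to 19 in LNCaP, higher by 6.56 ± 0.24 and 5.6 ± 0.27 (adjusted p = 1.31e-07 and 4.94e-07), beside KLF9 and DIO1 at the low end. Of the retinoic acid targets DHRS3 rose with androgen (1.36 ± 0.15, adjusted p = 2.63e-06), and the transglutaminase gene TGM2 had 1612, 2010 and 1852 reads in PC3, higher by 4.46 ± 0.33 against androgen and 8.35 ± 0.30 against vehicle (adjusted p = 5.13e-06 and 1.30e-07). Both vitamin D targets tested were lower in PC3. TRPV6, a calcium channel gene, had 1, 0 and 0 reads, at least 166-fold and 181-fold below LNCaP, and CLMN had log2 differences of -5.38 ± 0.18 and -5.63 ± 0.17 (adjusted p = 9.19e-08 and 6.46e-08).

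Of 7 REV-ERB and ROR targets, E2F8 alone was called with androgen (-1.98 ± 0.14, adjusted p = 4.69e-08, edgeR). In PC3, where NR1D1 and NR1D2 were higher, the clock genes NPAS2 (6.09 ± 0.22 and 6.38 ± 0.19, adjusted p = 1.33e-07 and 4.98e-08), CIART (2.40 ± 0.15 and 1.64 ± 0.10, adjusted p = 1.55e-06 in both) and CLOCK (1.5 ± 0.07 and 1.37 ± 0.07, adjusted p = 5.10e-07 and 8.36e-07) were among 4 called higher in each comparison, with 0 lower against androgen and 1 against vehicle. Of 7 targets of the oestrogen-related receptors tested in each comparison, 0 were called. By adjusted p alone, 3 passed edgeR's test with androgen, beside 8763 of all 11697 genes. In each PC3 comparison 5 passed it, and all 5 were lower in PC3. Of all genes, 10530 of 12541 passed against androgen (5151 lower) and 10577 of 12686 against vehicle (5170 lower). The lower filter also admitted PERM1, a muscle regulator of oxidative metabolism, which was named after its values were seen. It had 27, 13 and 22 reads with vehicle, 52, 49 and 53 with androgen and 13, 4 and 14 in PC3, and was called in each comparison. It was higher with androgen (1.20 ± 0.24, adjusted p = 4.83e-04, edgeR; 0.98 without vehicle replicate 2, short of 2-fold). It was lower in PC3, with log2 differences of -2.55 ± 0.31 against androgen (adjusted p = 7.67e-05) and -1.34 ± 0.42 against vehicle (adjusted p = 0.0162, and 0.067 without vehicle replicate 1).

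Of the oestrogen targets, GREB1 rose with androgen (2.55 ± 0.08, adjusted p = 1.35e-11, edgeR) and MYB fell (-2.42 ± 0.22, adjusted p = 4.15e-07). GREB1 had 2, 2 and 5 reads in PC3, with log2 differences of -9.15 ± 0.19 and -6.58 ± 0.23 (adjusted p = 1.58e-08 and 1.16e-07), while AREG, with 5858, 4660 and 2872 reads, and IGFBP4, with 22373, 17896 and 33670, were higher by 8.95 to 10.42 on that scale in both. Of the FXR and PXR targets, whose receptors were under the floor, the bile salt exporter gene ABCB11 fell with androgen from 87, 76 and 133 to 2, 2 and 6 reads (-4.96 ± 0.36, adjusted p = 4.83e-08) and CYP3A5 rose by 1.85 ± 0.18 (adjusted p = 6.97e-07). In PC3, CYP3A5 was at least 53.4-fold below androgen and ABCB11 at least 40.8-fold below vehicle.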

How the data were processed

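Per the labels and the study's methods, the authors trimmed single-end reads (cutadapt 4.1), aligned them to GRCh38 (STAR 2.7.7a), removed PCR duplicates by molecular identifiers (UMI-tools 1.1.2) and deposited STAR read counts per gene; versions are from the submitters' processing notes, the study's methods state other versions of cutadapt and STAR, and the gene model was not given in the sources used here. The deposited counts table (28216 genes) equalled the first-strand STAR column in all 253944 values. Reads placed on no gene (20.3% to 25.4%) were left out, and the opposite strand held 2.33% to 3.06% of gene reads. Libraries of a group are separate columns of that table, and none was pooled.

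Counts were scaled by TMM and tested with edgeR 4.0.16 (R 4.3.3; quasi-likelihood F test, genes above 3 CPM in at least 3 libraries, each comparison on its own 6 libraries, Benjamini-Hochberg adjustment over all genes tested). Calls needed an adjusted p under 0.05 and a fold of at least 2. A floor of 3 reads per library gave lower bounds for folds. On simulated data, limited to genes past the 3 CPM filter, 200 of 200 changed genes were recovered in the androgen comparison. In PC3 against androgen and PC3 against vehicle 198 and 199 of 200 were recovered, and each comparison had 0 false calls. Recovery of members with fewer reads, uneven spread or differences near 2-fold was not tested. Same-numbered androgen and vehicle libraries deviated together (r of 0.19, 0.22 and 0.20 across 11697 genes), so a replicate block was fitted beside the result. The p-values given are from the fit without this block unless it is named. PC3 libraries showed no such pairing. The study's own model held a term for experimental batch, but the batches are not named, so that term could not be fitted here. Alternatives were DESeq2 1.42.0, other normalization, filters, unstranded counts, 1 fit for all libraries and leaving out each library.

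Promoters came from RefSeq (GRCh38.p14) and exon lengths from GENCODE 44. Stretches of 74 bases of each member were aligned to the genome with minimap2 2.31-r1302: at most 0.33% matched elsewhere, except ESRRA (4.71%). Named genes were all members, and of each other list up to 3 called genes with the largest change per comparison. One such target gene is not reported here. Members and lists were chosen with earlier results of these data known; some targets were in more than 1 list, and 3 of 87 listed targets had no entry in the table.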

Additional observations from a re-analysis of the deposited data

Results flagged for a closer look

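Some members had many reads on the strand opposite to the gene, in a column of the deposited files that the comparisons did not use. For NR1H3 the opposite strand held a median of 30.8% of the gene's reads over 9 libraries, and for NR2C2 36.3%, where 2.33% to 3.06% was the share over all genes. For NR1H3 the share was highest in the androgen libraries (35.4% to 43.6%), above 22.7% to 30.8% with vehicle and 27.3% to 33.3% in PC3. For NR2C2 it was lowest there (26.2% to 31.0%), below 35.1% to 40.0% with vehicle and 38.6% to 39.5% in PC3. NR1H3 shares 4.2% of its exonic bases with ACP2 and NR2C2 60.5% with MRPS25, both read from the other strand. NR1D1 had a median of 22.7%, with 24.7% to 36.8% under vehicle and 20.4% to 26.9% under androgen but 1.3% to 1.8% in PC3; it overlaps THRA, read from the other strand. The counts compared were those of the gene's own strand.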

How the results depend on the processing

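Of 1344 log2 fold changes recomputed over 3 comparisons under up to 20 settings, 1332 kept their direction and their side of the calling threshold. Those reversed were ESRRA in PC3 against androgen (-0.02 with unstranded counts, -0.13 without PC3 replicate 3) and against vehicle (-0.09 without PC3 replicate 3), NR5A2 against androgen (-0.07 without PC3 replicate 1, -0.05 without androgen replicate 1) and PPARA against vehicle (-0.31 without PC3 replicate 3); none of these had been called, and the cause was not tested. Over all libraries left out in turn, these 4 differences ran from -0.13 to 0.10, -0.09 to 0.14, -0.07 to 0.39 and -0.31 to 0.36. Calls were gained for PPARA against androgen (-1.14 without PC3 replicate 3), VDR against vehicle (-1.02 and -1.0 without PC3 replicate 2 or 3), NR6A1 against vehicle (-1.08 without PC3 replicate 3) and NR2F1 with androgen. Receptors called with androgen numbered 2 with no filter or with the lower filter, 3 with the lower filter and the replicate block (an alternative added after seeing the data, as was leaving out libraries with the lower filter) and 18 by adjusted p alone. By adjusted p alone, 21 coregulators, 37 targets and 8763 genes passed with androgen, 23 receptors, 23 coregulators and 10530 genes in PC3 against androgen, and 24 receptors, 22 coregulators and 10577 genes against vehicle, since that setting drops the 2-fold limit. With no filter, 2941, 9147 and 8713 genes were called in the 3 comparisons against 1641, 5773 and 5485, since more genes were tested. Adjusted p also rose past 0.05 in the androgen comparison for RARB (0.0514 with DESeq2, 0.0622 with all 9 libraries in 1 fit), NR1D1 (0.0859 and 0.0588), NR1D2 (0.0949 in 1 fit) and NR2F2 (0.109 in 1 fit). The replicate block left 1 receptor called with androgen and changed no other call than NR2F1.

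Leaving out 1 library at a time gave 1 receptor called with androgen each time, 14 to 15 in PC3 against androgen and 13 to 15 against vehicle; for coregulators 1, 8 to 9 and 6 to 7, for ligand metabolism genes 6, 12 to 13 and 12, for targets 17 to 20, 36 to 37 and 37 to 39, and for all genes 1601 to 1686, 5717 to 5830 and 5415 to 5616. Depth limits PGR, RORA, ESR2, NR4A2, NR4A3 and NR5A2, which had few reads.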
